A study of Macaca mulatta with 10 samples.

Results

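The proteasome is the protease complex that degrades ubiquitin-tagged proteins, and its subunit genes were compared between male rhesus macaques living in unstable and in stable social conditions, using lymph node RNA. The members were all rows of the deposited gene table whose symbol begins with PSMA, PSMB, PSMC, PSMD, PSME, PSMF or PSMG followed by a digit. The rule gave 43 of 18622 gene rows. Of these, 5 encode the immunoproteasome catalytic subunits and their activator (PSMB8, PSMB9, PSMB10, PSME1 and PSME2), and 38 are the other members. PSMC3IP fits the rule by its name only, since it encodes a recombination protein that binds the PSMC3 product and is not a proteasome subunit. PSMA7, PSMB11 and the chaperone genes PSMG1 to PSMG4 were not among the rows, so they are not analysed here.

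Each of 5 animals in unstable and 5 animals in stable social conditions gave 1 lymph node sample and 1 array, so replicates are separate animals. The labels name no drug, genetic change or other treatment in either group. The platform was the Illumina HumanRef-8 v3.0 bead array, which carries human sequence probes. The age labels, given without a unit, were 6.84, 6.72, 6.7, 5.62 and 5.61 in the 5 unstable animals by number, against 5.73 to 5.87 in the stable group. Unstable animals 1 to 3 shared slide 1 with stable animal 5, unstable animals 4 and 5 were on slide 3, and stable animals 1 to 4 were on slide 2. Slide 1 alone held both groups, with 1 stable animal, and all its unstable animals carry the higher age labels.

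The core particle of the proteasome is a barrel of alpha and beta rings, in which the beta subunits PSMB5, PSMB6 and PSMB7 carry the proteolytic sites. Immune cells, and other cells exposed to interferon-gamma, replace these with PSMB8, PSMB9 and PSMB10, which alters the peptides made for MHC class I presentation. A regulatory cap of PSMC ATPases and PSMD subunits recognises, unfolds and admits substrates, and the PSME1 and PSME2 products form an alternative activator cap that interferon-gamma also induces. Lymph nodes are rich in lymphocytes and antigen-presenting cells, in which the immunoproteasome is the prevailing form.

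All values below are on the log2 scale of the authors' gene table, and differences are the mean of unstable animals minus the mean of stable animals. Background on each array was taken from the side of its distribution below the most common value, and a gene counted as above background when it lay at least 3 SDs over the mode. That held for 43.1% to 43.7% of genes on each array, and median probe intensity per array was 104.5 to 118.6. Among the 43 members, 38 reached this level on at least 3 arrays, and 35 did on all 10. Those that reached it on no array were PSMA8, PSMC3, PSMC6 and PSME3. PSMC3IP was above background on 1 array. Mean correlation with the other arrays was lowest for unstable animal 4 (0.9766) and stable animal 2 (0.9779). Values with 1 animal left out stand beside many of the differences given in full, but not every such move is given. Some differences are also given with arrays scaled to equal medians. Under that scaling the median difference of genes above background on 3 or more arrays was 0.052, not 0, and 29.1% of them were lower. Lymph node markers were present, with CD3D at 12.16 ± 0.10 in unstable and 12.18 ± 0.23 in stable animals, and CD79B at 12.34 ± 0.21 in unstable and 12.34 ± 0.39 in stable animals (SD, n = 5 each). Of the marker lists used below, 3 of 7 B cell genes, MS4A1 among them, and 1 of 8 T cell genes were above background on 0 arrays.

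No proteasome or immunoproteasome gene passed the test of unstable against stable animals. All 5 immunoproteasome genes had slightly lower means in unstable animals, by 0.007 to 0.161, but within slide 1 the means of 3 of the 5 were higher and their median difference was 0.057. Of the 38 other members 26 had lower means, and 25 did within slide 1, against 51.1% and 49.2% of all genes. The immunoproteasome median difference was -0.066 and that of the other members was -0.044, against -0.002 over all genes. The largest differences were -0.164 for PSMD13, -0.161 for PSME2 and -0.149 for PSMC5 on the low side, and 0.147 for PSMA1 on the high side. These are ratios of 0.893, 0.895, 0.902 and 1.107.

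In the limma fit over all 18622 genes with Benjamini-Hochberg adjustment, 0 genes passed an adjusted p of 0.05 (0.0% of genes tested), members included. The smallest adjusted p among members was 0.918, for PSMC5. At an unadjusted p under 0.05, 2 members were lower in unstable animals (PSMC5 and PSMA8), against 2.73% of all genes. At the same threshold 0 members were higher, against 2.41% of all genes. The value ranges of the groups did not overlap for 0 members in either direction, while 0.516% of all genes lay wholly lower and 0.322% wholly higher in unstable animals. In total 31 of 43 members had a lower mean in unstable animals, against 51.1% of all genes. The members were measured on the same 10 arrays, so these counts describe 10 animals and are not 43 separate observations. In a whole lymph node, fewer cells of a type and less RNA per cell cannot be told apart.

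**Figure D1:**
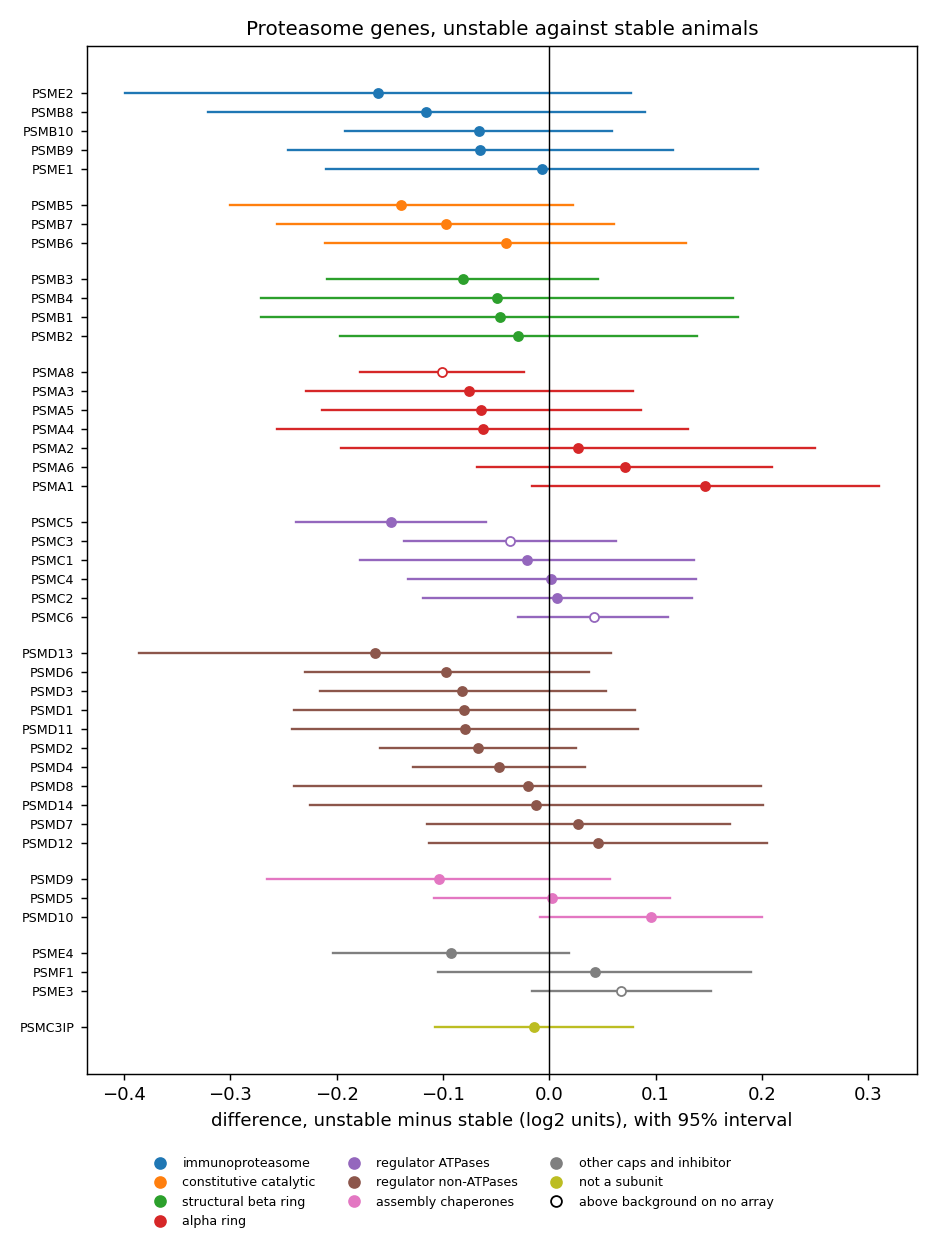
Difference in log2 expression, unstable minus stable, for each member with its 95% confidence interval from limma, grouped by role in the complex, with open circles for genes above background on no array. Points lie between -0.164 for PSMD13 and 0.147 for PSMA1, and most fall slightly below 0.

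Among the immunoproteasome catalytic genes, PSMB8 encodes the subunit that takes the place of the PSMB5 product. PSMB8 was at 7.52, 7.89, 7.93, 7.94 and 7.66 in unstable animals 1 to 5, against 8.01, 8.02, 7.96, 7.80 and 7.72 in stable animals 1 to 5. Unstable animals 1 and 5 lay below every stable animal and the other unstable animals lay among them. The difference was -0.116 (SE 0.093, 95% interval -0.321 to 0.090), with a limma adjusted p of 0.954. It was 0.057 within slide 1 and -0.049 without unstable animal 1.

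PSMB9, whose product replaces the PSMB6 subunit, was at 7.96, 7.99, 7.96, 7.85 and 7.96 in unstable animals, against 7.99, 8.20, 8.17, 7.99 and 7.71 in stable animals. The unstable animals were tightly grouped, whereas the stable animals ran from below to above all of them. PSMB9 differed by -0.065 (SE 0.082, interval -0.246 to 0.116), with a limma adjusted p of 0.973. Within slide 1 the difference was 0.259, since the single stable animal there had the lowest value of all 10. It was -0.018 without stable animal 2, -0.026 without stable animal 3, -0.140 without stable animal 5 and -0.041 without unstable animal 4. The PSMB9 row equals the mean of 2 probes. The brighter probe averaged 8.54 in unstable and 8.651 in stable animals, a difference of -0.111. The dimmer probe went the other way, at 6.902 in unstable and 6.814 in stable animals (0.087). It was above background on 3 arrays only.

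PSMB10, whose product replaces the PSMB7 subunit, was at 11.94, 12.15, 11.89, 12.03 and 12.11 in unstable animals, against 12.12, 12.01, 12.19, 12.03 and 12.11 in stable animals. The groups overlapped over most of their range, and the difference was -0.066 (SE 0.057, interval -0.192 to 0.059, limma adjusted p 0.955). PSMB10 differed by -0.110 within slide 1, -0.006 with arrays scaled to equal medians, -0.041 without stable animal 3 and -0.033 without unstable animal 3.

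PSME1 and PSME2 encode the alpha and beta subunits of the interferon-inducible activator cap, which assemble together. PSME1 was at 11.60, 11.77, 11.37, 11.61 and 11.65 in unstable animals, against 11.62, 11.57, 11.90, 11.48 and 11.47 in stable animals. Its difference of -0.007 was far smaller than its standard error of 0.092 (interval -0.210 to 0.196, limma adjusted p 0.997). It took a positive sign in 6 other settings, at 0.019 with the age label as a covariate, 0.108 within slide 1 and with slide as a fixed block, 0.025 without the older unstable animals, 0.066 without stable animal 3 and 0.050 without unstable animal 3. Slides 2 and 3 each held a single group, so the difference with slide as a fixed block rests on slide 1 and is not a separate check.

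PSME2 had a different layout. It was at 10.27, 10.31, 10.22, 10.06 and 10.71 in unstable animals, against 10.37, 10.54, 10.63, 10.48 and 10.35 in stable animals. Unstable animals 1 to 4 lay below every stable animal, and unstable animal 5 lay above every stable animal. The difference was -0.161 (SE 0.108, interval -0.399 to 0.077), with a limma adjusted p of 0.945. Leaving out 1 animal moved it both ways, to -0.261 without unstable animal 5 (limma adjusted p 0.872) and to -0.098 without unstable animal 4. It was -0.082 within slide 1 and -0.057 with arrays scaled to equal medians.

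**Figure D2:**
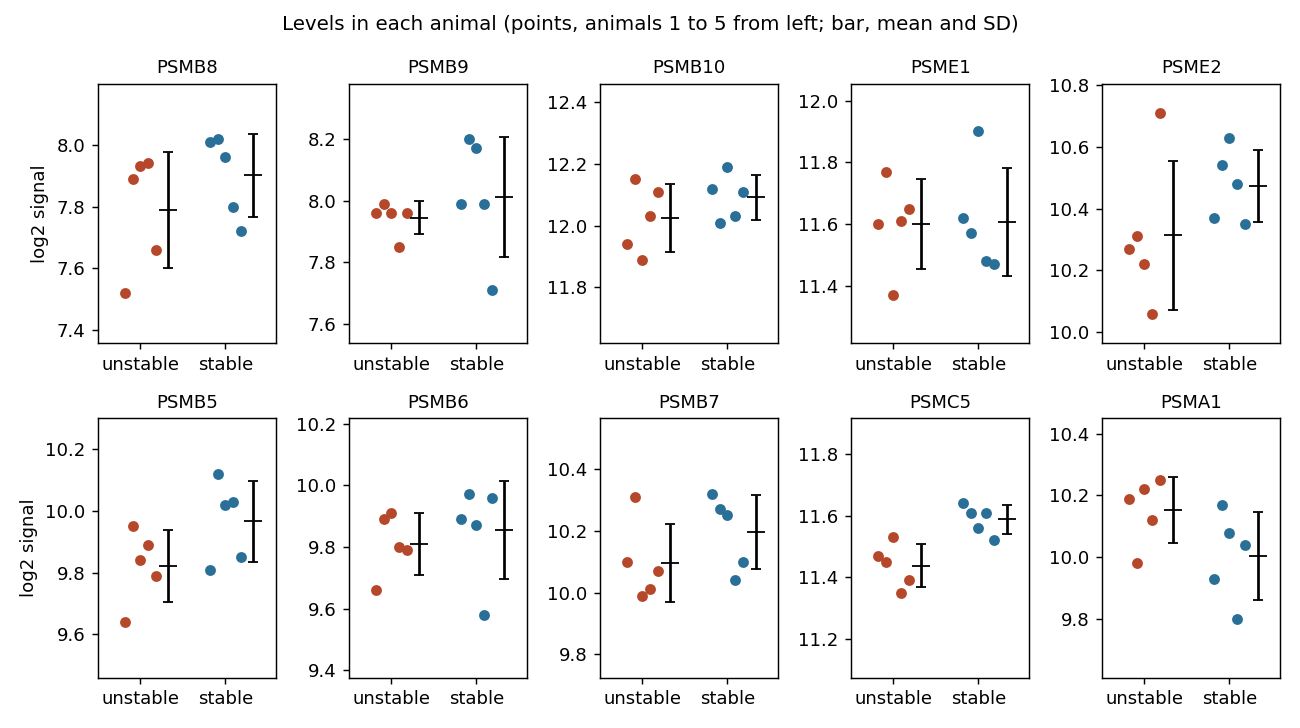
Log2 expression per animal for the 5 immunoproteasome genes, the 3 constitutive catalytic genes, PSMC5 and PSMA1, with unstable animals left of stable animals, points for animals 1 to 5 from the left and a bar for the mean and SD of each group. Points of the groups overlap in every panel, and in the PSME2 panel unstable animal 5 stands above the other 9 animals.

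The 3 constitutive catalytic genes also had lower means in unstable animals, with a median difference of -0.097. PSMB5, which encodes the chymotrypsin-like site, was at 9.64, 9.95, 9.84, 9.89 and 9.79 in unstable animals, against 9.81, 10.12, 10.02, 10.03 and 9.85 in stable animals. Only unstable animals 1 and 5 lay below the lowest stable animal. PSMB5 differed by -0.139 (SE 0.073, interval -0.300 to 0.022, limma adjusted p 0.942), by -0.035 within slide 1, by -0.024 with arrays scaled to equal medians and by -0.092 without unstable animal 1. Leaving out stable animal 1 gave -0.177 for PSMB5. PSMB7, the trypsin-like site, was at 10.10, 10.31, 9.99, 10.01 and 10.07 in unstable animals, against 10.32, 10.27, 10.25, 10.04 and 10.10 in stable animals. The difference of -0.097 (SE 0.072, limma adjusted p 0.945) was 0.033 within slide 1 and 0.001 with arrays scaled to equal medians, so its sign was not held, and it was -0.151 without unstable animal 2. PSMB6, the caspase-like site, was at 9.66, 9.89, 9.91, 9.80 and 9.79 in unstable animals, against 9.89, 9.97, 9.87, 9.58 and 9.96 in stable animals. Its lowest value belonged to a stable animal, and its difference of -0.041 (SE 0.077, limma adjusted p 0.984) was 0.071 with arrays scaled to equal medians. Leaving out each animal in turn, the PSMB6 difference lay between -0.109 without stable animal 4 and -0.002 without unstable animal 1.

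A shift from constitutive to immune catalytic subunits would appear in the within-animal difference between each immune gene and the gene it replaces. These differences are between probes of unequal binding, so only their change between groups is read here. PSMB8 minus PSMB5 averaged -2.034 ± 0.099 in unstable and -2.057 ± 0.158 in stable animals (SD, n = 5 each). PSMB9 minus PSMB6 averaged -1.867 ± 0.108 in unstable and -1.843 ± 0.252 in stable animals. PSMB10 minus PSMB7 averaged 1.928 ± 0.094 in unstable and 1.897 ± 0.117 in stable animals. All 3 contrasts differed between the groups by 0.031 or less in size, which is below the SD within either group.

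The mean of the 3 immune minus the mean of the 3 constitutive catalytic genes was -0.655, -0.710, -0.653, -0.631 and -0.640 in unstable animals 1 to 5, against -0.630, -0.708, -0.602, -0.611 and -0.788 in stable animals 1 to 5. The unstable animals lay inside the range of the stable animals throughout, and the group means differed by 0.010. Widening the contrast to all 5 immunoproteasome genes minus all 38 other members gave 0.968 ± 0.063 in unstable and 1.017 ± 0.114 in stable animals, a difference of -0.049 (SD, n = 5 each). Within slide 1 the first contrast differed by 0.115 and the second by 0.088, against a single stable animal.

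**Figure D3:**
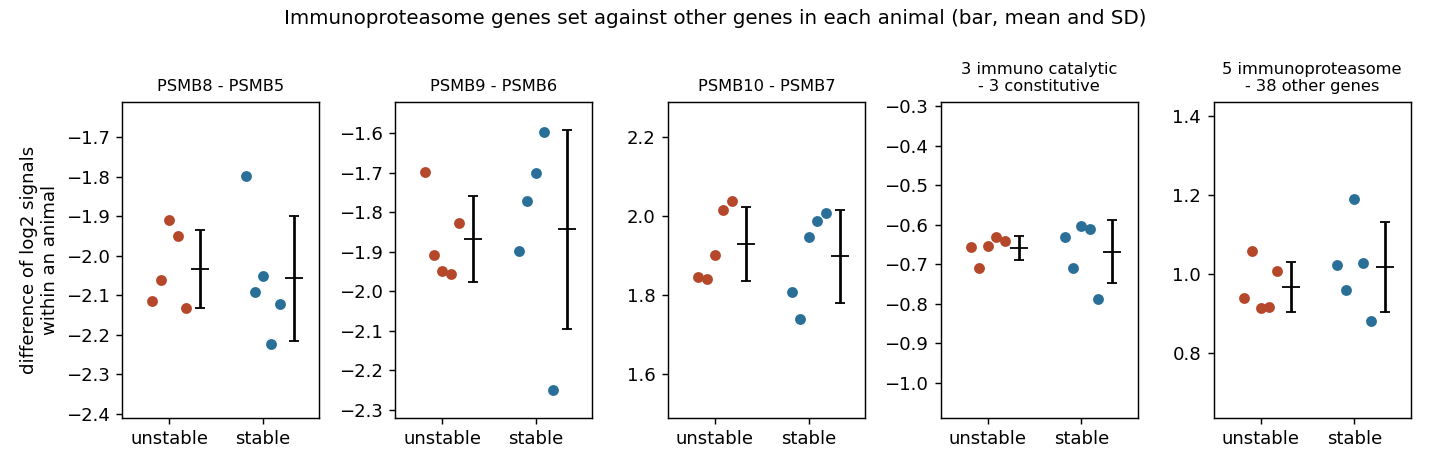
Within-animal log2 differences between immune and constitutive proteasome genes, with unstable animals left of stable animals, points for animals 1 to 5 from the left and a bar for the mean and SD of each group. Unstable and stable animals overlap in all contrasts, with the catalytic contrast at -0.710 to -0.631 in unstable and -0.788 to -0.602 in stable animals.

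In the rest of the core particle, the 4 structural beta genes PSMB1, PSMB2, PSMB3 and PSMB4 all had lower means in unstable animals, by 0.029 to 0.081. The alpha ring, which gates entry to the barrel, was mixed. Of its 7 measured genes 4 had lower and 3 had higher means, with a median of -0.062. PSMA1 had the highest difference of all members. It was at 10.19, 9.98, 10.22, 10.12 and 10.25 in unstable animals, against 9.93, 10.17, 10.08, 9.80 and 10.04 in stable animals. Unstable animals 1, 3 and 5 lay above every stable animal, and the difference was 0.147 (SE 0.074, interval -0.016 to 0.310, limma adjusted p 0.942). It was 0.092 within slide 1, 0.096 without stable animal 4 and 0.191 without unstable animal 2. The PSMA6 difference was 0.071 and the PSMA2 difference 0.027, against -0.064 for PSMA5, -0.075 for PSMA3 and -0.062 for PSMA4. PSMA8, the testis-specific alpha subunit, was not above background on any array, at 6.498 ± 0.044 in unstable and 6.599 ± 0.052 in stable animals (SD, n = 5 each), so its unadjusted p of 0.0146 (limma adjusted p 0.942) concerns signal at background level.

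The base of the regulatory cap is a ring of 6 ATPases that unfold substrates. PSMC5 had the smallest p of all members. It was at 11.47, 11.45, 11.53, 11.35 and 11.39 in unstable animals, against 11.64, 11.61, 11.56, 11.61 and 11.52 in stable animals. Unstable animals 1, 2, 4 and 5 lay below every stable animal, and unstable animal 3 lay above only stable animal 5. The difference was -0.149 (SE 0.040, interval -0.238 to -0.059), with an unadjusted p of 0.00396 and a limma adjusted p of 0.918. It lay between -0.171 and -0.127 when each animal was left out in turn. Within slide 1 it was -0.030, and with arrays scaled to equal medians it was -0.065. With the age label as a covariate it was -0.201, and without the older unstable animals it was -0.218.

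PSMC5 shows how far the scaling between arrays enters a difference of this size. Before scaling, its probe intensity was 3690.2, 3452.1, 3829.5, 2773.3 and 2612.3 in unstable animals, against 3389.9, 3395.9, 3113.7, 3307.1 and 3306.2 in stable animals. On that scale unstable animals 1 to 3, which shared slide 1, were above all stable animals, and unstable animals 4 and 5 were below all of them. The other ATPase genes measured above background, PSMC1, PSMC2 and PSMC4, differed by -0.021, 0.007 and 0.002. PSMC3 was at 6.598 in unstable and 6.635 in stable animals and PSMC6 at 6.824 in unstable and 6.783 in stable animals, both at background level.

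The non-ATPase cap subunits include ubiquitin receptors, scaffold subunits and the deubiquitinase PSMD14. Of 11 such genes 9 had lower means in unstable animals, with a median difference of -0.067. PSMD13, a structural subunit of the lid, was at 6.72, 6.75, 6.90, 7.11 and 7.05 in unstable animals, against 7.27, 6.81, 7.02, 7.06 and 7.2 in stable animals. It was above background on 7 arrays, and its low values belonged to unstable animals 1 and 2 and stable animal 2. The difference was -0.164 (SE 0.100, limma adjusted p 0.945), -0.412 within slide 1, -0.036 with the age label as a covariate and 0.011 without the older unstable animals. Leaving out each animal in turn, the PSMD13 difference lay between -0.23 and -0.115. PSMD13 is also the mean of 2 probes, of which the brighter differed by -0.267.

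PSMD6, a lid subunit, differed by -0.097 (SE 0.060), and PSMD2, the large scaffold subunit of the base, by -0.067 (SE 0.042), but with arrays scaled to equal medians the signs turned to 0.015 for PSMD6 and 0.032 for PSMD2. Without stable animal 2 the PSMD6 difference was -0.042, and without unstable animal 2 the PSMD2 difference was -0.036. PSMD14 differed by -0.012 and PSMD4, a ubiquitin receptor, by -0.047. The remaining 6 non-ATPase genes, among them PSMD12 at 0.046, differed by 0.082 or less in size.

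Of the assembly chaperones, PSMD10 (gankyrin) differed by 0.096 (SE 0.047), PSMD5 by 0.003 and PSMD9 by -0.104 (SE 0.073), or 0.015 for PSMD9 within slide 1, -0.063 without stable animal 1 and -0.064 without unstable animal 2. PSME4, a nuclear activator that acts in sperm and in DNA repair, was at 10.04, 9.99, 10.03, 9.85 and 10.14 in unstable animals, against 10.07, 10.16, 10.08, 10.07 and 10.12 in stable animals. The PSME4 difference was -0.092 (SE 0.050, limma adjusted p 0.942), -0.051 without unstable animal 4 and 0.009 with arrays scaled to equal medians. PSMF1, an inhibitor of the core particle, differed by 0.043. PSME3, the nuclear activator related to PSME1 and PSME2, stayed at background, at 6.689 in unstable and 6.621 in stable animals.

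The pattern across animals was uneven. Stable animal 2 had the highest value of the 10 animals for 18 of 43 members, against 13.2% of all genes, and lay above the mean of all animals for 35 members. Its median deviation was 0.122. Unstable animal 1 had the lowest value for 11 members, against 8.50% of all genes, and the highest for 0. Without stable animal 2, 24 of 43 members had lower means in unstable animals, against 50.7% of all genes, with a member median of -0.016. In that setting the other members were split 19 of 38 with a median of -0.002, while the 5 immunoproteasome genes were all lower with a median of -0.086. Stable animal 2 also had the highest mean of the 7 myeloid marker genes (9.264). It was the highest animal for CD14, CD163 and ITGAX of that list and below the mean of the stable animals for CSF1R, CD68 and LYZ. The part of myeloid cells in its proteasome values was not tested.

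**Figure D4:**
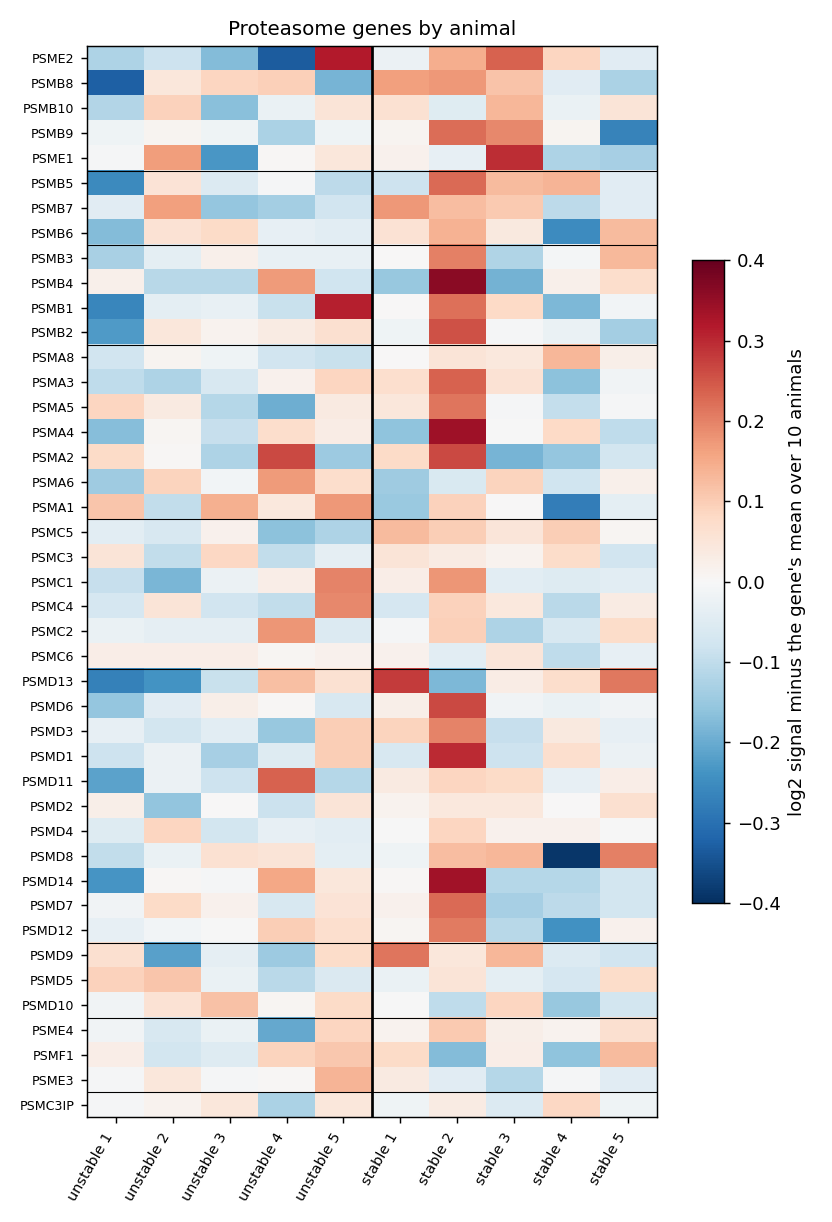
Heat map of each member's log2 value minus its mean over the 10 animals, with unstable animals left of stable animals and members grouped by role. The column of stable animal 2 is above the mean for 35 of 43 members and that of unstable animal 1 for 10.

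The direction shared by most members also depended on the scaling between arrays. In the authors' table all arrays have nearly the same distribution. For 38 members matched to probes, 28 had lower means in unstable animals after quantile normalization of the probe intensities, against 51.2% of all matched genes. With the same intensities scaled to equal medians 11 of 38 did, with a median of 0.040. Of all matched genes 47.3% were lower, and of genes above background on 3 or more arrays 29.1%. Under that scaling the median difference of genes above background on 3 or more arrays was itself 0.052, and that of the other members was 0.052, the same as this shift. Scaling to equal medians over brighter genes, chosen after the data were seen, gave 28 of 38 lower, with a median of -0.037. Under it 60.7% of genes above background on 3 or more arrays were lower, with a median of -0.025. Of all matched genes, those at background included, 80.3% were lower, with a median of -0.072. With the age label as a covariate, 26 of 43 members were lower in unstable animals, against 52.0% of all genes, with a member median of -0.030. Without unstable animals 1 to 3, which carry the higher age labels and are all unstable animals of slide 1, 22 of 43 were lower, with a median of -0.001. In that setting 52.1% of all genes were lower. Age and slide cannot be told apart in that setting.

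**Figure D5:**
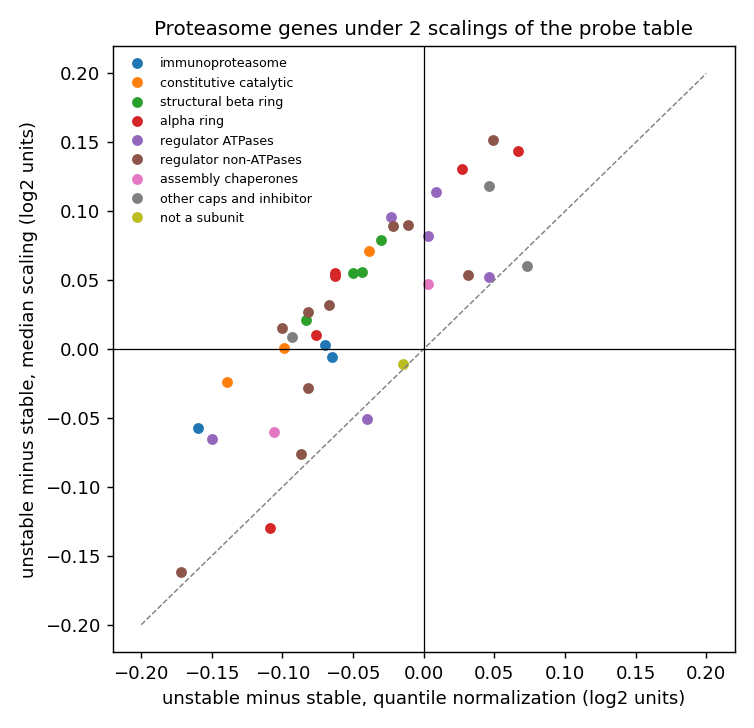
Difference in log2 expression, unstable minus stable, of the 38 members matched to probes, with arrays scaled to equal medians (vertical axis) against quantile normalization (horizontal axis), coloured by role. Most points lie above the dashed line of equal values, with 28 of 38 below 0 on the horizontal axis and 11 of 38 below 0 on the vertical axis.

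PSMB8 and PSMB9 lie in the MHC region beside the peptide transporter genes. In the order of protein-coding genes in the RefSeq macaque table (T2T-MMU8v2.0), PSMB8 is adjacent to both TAP1 and TAP2, PSMB9 is adjacent to TAP1, and PSME1 and PSME2 have 1 gene between them. In a list of 24 measured genes of class I antigen presentation and interferon-gamma signalling, 0 passed the adjusted threshold and 20 had lower means in unstable animals. The list's median difference was -0.077, against -0.002 over all genes and -0.021 for the same list within slide 1. At an unadjusted p under 0.05, 4 genes were lower (IRF1, TAP1, CALR and B2M) and 0 were higher, against 2.73% and 2.41% of all genes.

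IRF1, a transcription factor that interferon-gamma induces and that activates PSMB9 and TAP1 transcription, was at 7.85, 7.80, 7.77, 7.88 and 8.06 in unstable animals, against 8.10, 8.07, 8.01, 7.93 and 8.09 in stable animals. Unstable animals 1 to 4 lay below every stable animal. IRF1 differed by -0.168 (SE 0.057) with an unadjusted p of 0.0141 and a limma adjusted p of 0.942, and by -0.286 within slide 1. It was -0.099 with the age label as a covariate, -0.102 with arrays scaled to equal medians and -0.070 without the older unstable animals. TAP1, which moves peptides into the endoplasmic reticulum, differed by -0.151 (SE 0.059, limma adjusted p 0.942), or -0.049 with arrays scaled to equal medians, and TAP2, its partner, by -0.119 (SE 0.079), or 0.100 within slide 1 and -0.078 without unstable animal 4. B2M, the light chain of class I molecules, differed by -0.125 (SE 0.055), or -0.017 within slide 1 and -0.075 without the older unstable animals.

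CALR, a chaperone of class I assembly, was the single gene of the list whose groups did not overlap, against 0.516% of all genes lower in this way, with 8.64 to 8.80 in unstable and 8.85 to 9.50 in stable animals. The highest value was that of stable animal 2. CALR differed by -0.289 (SE 0.115, limma adjusted p 0.942), by -0.167 without that animal and by -0.191 within slide 1. CIITA, the activator of class II genes, differed by -0.445 (SE 0.249) with stable animal 1 alone at 8.93, by -0.195 without that animal and by -0.025 within slide 1. IFNG itself was above background on 0 arrays.

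Among 25 measured partners and regulators of the proteasome outside these symbols, 12 had lower and 13 had higher means in unstable animals, with a median of 0.001, and 0 reached an unadjusted p of 0.05. UBE3A, a ubiquitin ligase, differed by 0.076 (SE 0.034), SHFM1, a small cap subunit, by 0.124 (SE 0.059), or 0.082 without unstable animal 4, and UBQLN1, a shuttle for ubiquitinated proteins, by 0.124 (SE 0.067), or 0.062 without the older unstable animals. ZFAND2A, a stress-induced proteasome-associated protein, differed by -0.114 (SE 0.069), or -0.067 without stable animal 2. UFD1L, a cofactor of the VCP unfoldase, was above background on 2 arrays and differed by 0.047. NFE2L1, the transcription factor that induces proteasome genes when proteasome activity falls short, differed by -0.007. POMP, the maturation factor of the core particle, and RAD23B, another ubiquitin shuttle, were above background on 0 arrays.

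Cell type markers give the makeup of the samples beside these results. Red cell markers averaged 9.153 ± 0.284 in unstable and 9.607 ± 0.215 in stable animals, with 4 of 4 genes lower (SD, n = 5 each). HBA2 differed by -0.944 and HBB by -0.832, against -0.001 for ERAF and -0.038 for ALAS2, which was above background on 1 array. Within slide 1, 3 of the 4 red cell markers were lower. Myeloid markers averaged 8.909 ± 0.080 in unstable and 9.043 ± 0.204 in stable animals, with 7 of 7 genes lower. Of these, LYZ was above background on 0 arrays and ITGAX on 1. Within slide 1, 4 of the 7 myeloid markers were higher, with a median difference of 0.016. Markers of NK and cytotoxic cells averaged 7.378 ± 0.101 in unstable and 7.237 ± 0.140 in stable animals, with 5 of 6 higher. Within slide 1, 6 of the 6 were higher. Markers of dividing cells averaged 7.539 ± 0.193 in unstable and 7.388 ± 0.053 in stable animals, with 7 of 9 higher. Within slide 1, 5 of the 9 were higher. MKI67, CCNB1 and RRM2 of that list were above background on 0 arrays. T cell markers averaged 9.129 ± 0.2 in unstable and 9.116 ± 0.204 in stable animals, with 4 of 8 lower. Of the 8, 5 were lower within slide 1. B cell markers averaged 8.512 ± 0.098 in unstable and 8.562 ± 0.124 in stable animals, with 6 of 7 lower. Of the 7, 2 were lower within slide 1. Plasma cell markers averaged 7.382 ± 0.039 in unstable and 7.442 ± 0.146 in stable animals, with 6 of 6 lower. Of the 6, 5 were lower within slide 1, and 2 were above background on 0 arrays. Stroma markers averaged 10.646 ± 0.043 in unstable and 10.749 ± 0.344 in stable animals, with 4 of 5 lower. Of the 5, 3 were lower within slide 1. Fat markers averaged 7.714 ± 0.227 in unstable and 7.686 ± 0.146 in stable animals, with 6 of 8 higher. Of these 8, 7 were higher within slide 1. The part of cell makeup in the proteasome values was not tested.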

How the data were processed

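Per the labels' protocols, total RNA was column-extracted with DNase treatment and made into biotin-labelled cRNA. The authors deposited probe intensity values, not normalized between arrays, and log2 values of 18622 gene symbols, nearly equal in distribution across arrays. GenomeStudio is named, without a version, in the submitters' processing notes. Other software is not given in the sources used here. Where macaque and human sequences differ, probe signal may be lower.

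The log2 table was tested as deposited with limma 3.58.1 in R 4.3.3 (lmFit, eBayes, no covariates, two-sided), adjusted by Benjamini-Hochberg over all genes at 0.05. The fit was tested on simulated data. Gene rows were matched to the 24526 probes by their values: 31 members equalled 1 probe within 0.002, 7 the mean of 2 probes, and 5 (PSMA1, PSMB8, PSMD4, PSMD10 and PSME1) were unmatched. All 43 symbols were found in the RefSeq macaque table. Settings on the probe table cover the 38 matched members.

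The members and lists were chosen with earlier results of these data known. Genes given in full are the 5 immunoproteasome and 3 constitutive catalytic genes, the 10 other members of smallest p, and up to 6 genes of smallest p in each of the lists of pathway genes and partners. CD14, CD163, ITGAX, CSF1R, CD68, IFNG, NFE2L1 and POMP were named after their values were seen. So were HBA2, HBB, ALAS2, ERAF, MKI67, CCNB1 and RRM2. Alternatives were the probe table with quantile, normexp (offset 16) plus quantile or median scaling, a filter on dim genes (above background on at least 3 arrays), slide 1 alone, slide as a block (fixed or random), the age label, array weights, eBayes with trend and robust options, the replicate number as a block, and animals left out. Scaling over brighter genes was added after the data were seen. The number of arrays limits the precision. Python 3.11.15 and matplotlib 3.10.9 drew the figures.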

Additional observations from a re-analysis of the deposited data

Results flagged for a closer look

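Of 100 groups of 5 animals examined, 8 (8.0%) held an animal whose gap to its nearest neighbour was an unusually large share of the group's range. Chance gives about 1 in 20 for a single group. The groups here share the same animals and are not independent, so the count was not tested against that rate. The critical share is 0.71.

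In the unstable animals, PSMB2 in animal 1 was at 9.76, below the group mean of 9.969 and the highest value of 10.05 (gap share 0.839), and PSMB9 in animal 4 at 7.85 against 7.96 to 7.99 (0.803). PSMC2 in unstable animal 4 was at 10.97 against 10.74 to 10.77 in the others (0.851), and PSMD4 in unstable animal 2 at 8.88 against 8.72 to 8.76 (0.747).

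In the stable animals, 3 of the 4 cases were high values of animal 2. PSMD14 was at 10.39 there against 9.94 to 10.06 in the others (gap share 0.734), PSMD6 at 9.65 against 9.36 to 9.41 (0.844) and PSMD4 at 8.88 against 8.79 to 8.81 (0.71). The exception was PSMB6 in stable animal 4, at 9.58 against 9.87 to 9.97 in the others (0.735).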

How the results depend on the processing

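No member passed the adjusted threshold in any setting with a test (slide 1 alone gives values only), the smallest adjusted p being 0.465 (PSMC5, slide as a random block). In that setting the consensus correlation between arrays of the same slide was -0.084. Being negative, it took out no shift shared by a slide. With slide as a fixed block the PSMC5 difference was -0.03. Over all genes 1 passed with slide as a fixed block (MRPL38, -0.999) and 1 without the older unstable animals (HSBP1, 1.932), both named after their values were seen and neither a member. With slide 1 alone or as a fixed block, the immunoproteasome median was 0.057, the contrasts PSMB9 minus PSMB6 0.397, PSMB10 minus PSMB7 -0.144, immune minus constitutive catalytic 0.115 and immunoproteasome minus other members 0.088, and the signs turned for PSMB8 (0.057), PSMB9 (0.259), PSME1 (0.108), PSMB7 (0.033), PSMD9 (0.015) and TAP2 (0.100). With median scaling, the other members' median was 0.052 and the partners' 0.088, and PSMB9 (0.003), PSMB6 (0.071), PSMB7 (0.001), PSME4 (0.009), PSMD2 (0.032) and PSMD6 (0.015) turned sign. PSME1 was 0.019 with age as a covariate. Without the older unstable animals the other members' median was 0.010, PSME1 0.025 and PSMD13 0.011. Without stable 2 and unstable 4, PSMB9 was 0.006. With scaling over brighter genes, PSME3 was -0.017 and UFD1L -0.016, both near background. Leaving out 1 animal at a time, PSME1 ranged from -0.049 to 0.066.

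The number of members higher at an unadjusted p under 0.05, 0 in the reported fit, was 1 with age, array weights, median scaling, slide as a fixed or random block, 2 without stable 2 and unstable 4, and 0 to 1 leaving out each animal. The number lower, reported as 2, was 1 with the filter on dim genes, median scaling, scaling over brighter genes, normexp, slide as a fixed block, and trend and robust, and 2 to 5 leaving out each animal, with 5 without unstable animal 2 and 4 without unstable animal 5. The cause of these changes was not tested. The shares of all genes at that threshold are given for the reported fit only. Counts in the other settings are therefore not read as particular to the members. The replicate number did not pair animals: deviations of same-numbered animals correlated at -0.055 to 0.006. With the replicate number as a block 0 members passed, 1 was higher and 3 lower at an unadjusted p under 0.05, and the smallest adjusted p was 0.946. The other 666 gene values and 271 list values or counts were taken as unchanged. Values kept their direction and side of the threshold or stayed within the spread. Counts were equal or close to the reported one, such as 3 lower members beside the reported 2. PSMA8, PSMC3, PSMC6 and PSME3 gave no signal above background, so differences in them were not measurable here.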
